A study of Mus musculus with 18 samples.

Results

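The comparison set splenic CD4 T cells that carried a Gli2R transgene against wild-type (WT) cells after both had been stimulated. Its arrays were chosen by sample title: 3 arrays of stimulated Gli2R Tg cells and 3 of stimulated WT cells, 6 of the 18 arrays in the series. Gli2R is the repressor form of Gli2, and Gli2A, carried by other mice of the series, is the activator form. The cells were purified with magnetic beads from spleens of C57BL/6 mice aged 9 to 15 weeks and were activated with antibodies against CD3 and CD28 for 6 h. Total RNA was labelled with biotin and read on Affymetrix mouse arrays. The labels name both a column kit and Trizol for RNA extraction and do not say which arrays used which. The 6 arrays were set beside 3 arrays each of stimulated Gli2A Tg, resting Gli2R Tg and resting WT cells, all C57BL/6, where resting cells were taken without stimulation. No source used here gives the promoter that drives the transgenes or says whether the replicates came from separate mice. The p-values therefore measure the spread between these samples, which may be technical in part. Sex-linked genes (below) showed both male and female patterns in each of the 2 stimulated groups compared, so the replicates of each did not all come from the same animal. Levels are given as log2(intensity + 16) after quantile normalization, for the brightest probe set of each gene, over 18193 genes.

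Hedgehog ligands bind the receptor Ptch1, which releases the membrane protein Smo and lets Gli transcription factors act in the nucleus. Gli2 can activate its target genes or, once its activating end is removed, repress them, and Ptch1 is itself a target, so its transcript is a widely used readout of the pathway. In CD4 T cells, signals from the T cell receptor and CD28 switch on cytokine genes, glycolysis and entry into the cell cycle within hours.

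All 9 measured genes of the CD4 T cell list were well above the median gene level of 7.06 in both groups, from 10.1 for Cd4 to 13.4 for Cd2 in stimulated Gli2R Tg cells and from 9.81 for Cd4 to 13.6 for Cd2 in stimulated WT cells. Among them only Cd4 sets CD4 T cells apart from other T cells. The summed intensity of CD8 T and NK cell markers was 2891 to 3384 in Gli2R Tg arrays and 3333 to 4153 in WT arrays. Of these 12 markers 6 were above 0 and 6 below, and 0 were called. Without overlap, 1 was higher and 3 lower (33.3%, against 17.6% of all genes), and their part in the results below was not tested. The Gli2 probe set gave 4.41, 4.86 and 4.53 in the stimulated Gli2R Tg arrays and 4.25, 5.55 and 4.93 in the stimulated WT arrays. These low, overlapping levels check nothing about the transgene, because the part of Gli2 that it holds, relative to the probes, was not known here. Correlations between arrays were 0.975 to 0.978 within the Gli2R Tg group, 0.971 to 0.975 within WT and 0.967 to 0.976 between the groups. The third Gli2R Tg array and the third WT array lay farthest apart on the first principal component. The levels of Xist and of Y-linked genes were those of male cells on 2 of 3 stimulated Gli2R Tg arrays (the first and the third) and on 1 of 3 stimulated WT arrays (the second), and the Y-linked Eif2s3y had the highest difference of any gene, 2.90. Erythroid and platelet markers averaged 6.89, 7.47 and 7.85 in Gli2R Tg arrays and 7.98, 7.47 and 8.57 in WT arrays, with 9 of 10 genes lower in the Gli2R Tg mean. Their summed intensity ranged from 1905 to 3302 in Gli2R Tg arrays and from 2587 to 7695 in WT arrays, none of the 10 passed the test, and their part in the results below was not tested. Myeloid markers averaged 7.13, 7.13 and 7.36 in Gli2R Tg arrays and 7.52, 7.26 and 7.61 in WT arrays, with 12 of 18 genes below 0 (median -0.18; C1qa -1.03), and their summed intensity was 12740 to 14290 in Gli2R Tg arrays and 13860 to 14170 in WT arrays.

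Few genes separated the groups. With limma and Benjamini-Hochberg adjustment over all 18193 genes, 8 genes (0.044%) passed an adjusted p of 0.05, 3 higher (0.0165%) and 5 lower (0.0275%) in stimulated Gli2R Tg cells. An unadjusted p under 0.05 was reached by 1675 genes (9.21%). The 3 arrays of one group lay wholly above or below those of the other at 3199 genes (17.6%), 1504 higher (8.27%) and 1695 lower (9.32%) in Gli2R Tg cells. The 5th and the 95th percentile of log2 differences were -0.65 and 0.67. A difference over 2-fold was seen at 474 genes (2.61%), of which 79 were among the 9096 genes above the median level. In these bulk samples, fewer cells that hold a transcript and less of it per cell cannot be told apart.

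All 8 called genes were expressed at or below middling levels: their means over all arrays were under the median gene, and 5 of the 8 were under the 25th percentile of 5.37. Gstt1, a glutathione S-transferase that conjugates small electrophiles, gave 4.46, 4.76 and 4.51 in Gli2R Tg arrays, against 6.59, 6.33 and 6.59 in WT arrays. The Gli2R Tg arrays were at the bottom of the scale and did not overlap the WT arrays. Gstt1 fell (log2 difference -1.93 ± 0.29, SE; limma adjusted p = 0.0487). For genes this close to the floor the pseudocount sets the size of the difference, so no fold is given: for Gstt1 it was -0.95 with 64 added to the intensity and -3.14 with 1 added. In resting cells the gene averaged 6.52 in Gli2R Tg and 6.47 in WT, and stimulated Gli2A Tg cells held 6.10, 6.02 and 7.42. Cnr2, the cannabinoid receptor of immune cells, gave 4.34, 4.49 and 4.31 in Gli2R Tg arrays, against 5.63, 5.71 and 5.68 in WT arrays. It fell (log2 difference -1.30 ± 0.21, or -0.53 and -2.67 at pseudocounts of 64 and 1; limma adjusted p = 0.0487). Resting cells expressed more of it, 8.26 on average in Gli2R Tg and 8.51 in WT, and those groups differed by -0.26 (limma adjusted p = 0.753).

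The other 3 called genes that fell were near the floor of the arrays. Tdpoz1, a gene of the TD and POZ domain family, gave 4.28, 4.31 and 4.18 in Gli2R Tg arrays, against 5.96, 5.04 and 5.45 in WT arrays (log2 difference -1.23 ± 0.20, or -0.48 and -2.85 at pseudocounts of 64 and 1; limma adjusted p = 0.0487). The clone-named transcripts 4930431F12Rik and 4931429P17Rik, which the naming rule leaves out and which are given here after their values were seen, fell as well (log2 differences -1.09 ± 0.16 and -0.90 ± 0.14; limma adjusted p = 0.0487 for both). At these 3 genes stimulated Gli2A Tg cells also differed from WT, in the same direction (limma adjusted p = 0.0262 for Tdpoz1, 0.00991 for 4930431F12Rik and 0.0217 for 4931429P17Rik), in a comparison that called 0.137% of all genes. The Gli2A and Gli2R comparisons share the 3 WT arrays, which were higher here than the resting WT arrays too (4.16, 4.10 and 4.22 for Tdpoz1).

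The 3 genes that rose were Ankrd66, Cavin4 and Bbs4. Ankrd66, an ankyrin repeat gene, gave 5.89, 5.74 and 5.71 in Gli2R Tg arrays, against 4.38, 4.44 and 4.53 in WT arrays (log2 difference 1.33 ± 0.21, or 0.56 and 2.56 at pseudocounts of 64 and 1; limma adjusted p = 0.0487). Cavin4, a caveola coat protein best known from muscle, gave 5.45, 5.73 and 6.05 in Gli2R Tg arrays, against 4.26, 4.57 and 4.45 in WT arrays (log2 difference 1.32 ± 0.21, or 0.55 and 2.62 at pseudocounts of 64 and 1; limma adjusted p = 0.0487). Neither gene stood above the floor in resting cells of either genotype, where their means were 4.29 to 4.85. Bbs4 encodes a subunit of the BBSome, which carries membrane proteins through the primary cilium. It gave 6.86, 7.05 and 7.36 in Gli2R Tg arrays, against 5.66, 6.28 and 5.97 in WT arrays (2.18-fold; log2 difference 1.12 ± 0.18; limma adjusted p = 0.0487). Its 3 other probe sets differed by 0.67, 0.37 and -0.05, so the size of the rise depended on the probe set. Stimulated Gli2A Tg cells held a similar mean, 6.86, as did resting cells, 7.40 in Gli2R Tg and 7.31 in WT.

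The 8 calls all sat at an adjusted p of 0.0487 and were fragile. None remained when genes were scaled on the array median, at a pseudocount of 64, with only the 6 arrays compared in the fit, or with the sex pattern as a covariate, and none remained without the third Gli2R Tg array, without the first WT array (7 other genes passed) or without the third WT array, while the differences of the 6 called genes with a name kept their sign in the 18 alternatives run.

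**Figure D1:**
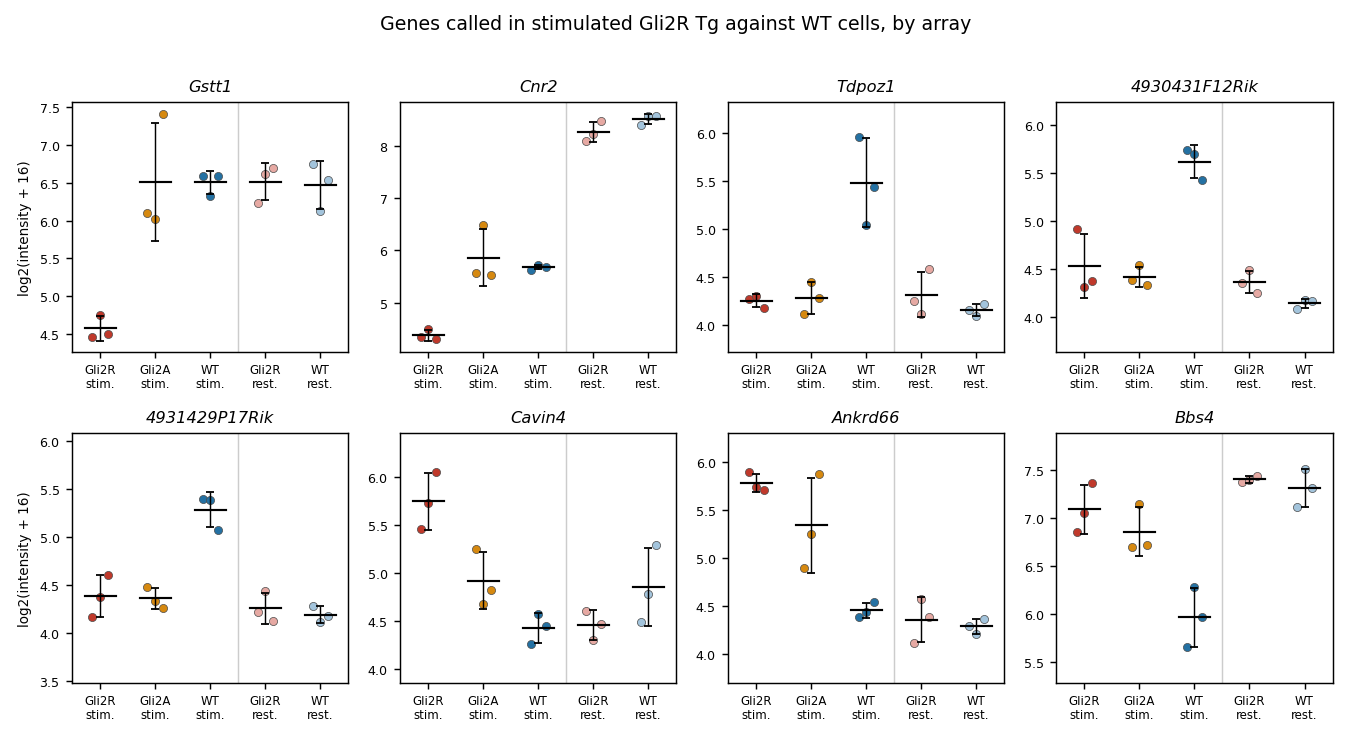
Levels of the 8 genes that passed the limma test, as log2(intensity + 16), in each array of stimulated Gli2R Tg, Gli2A Tg and WT cells and of resting Gli2R Tg and WT cells; points are arrays, horizontal lines are means and error bars are SD (n = 3). The Gli2R Tg and WT points of stimulated cells do not overlap in any panel, and the values of Gstt1 (4.46 to 4.76 against 6.33 to 6.59) are the farthest apart.

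Among the genes with the lowest p short of the threshold, Marchf10, a ubiquitin ligase gene, had the largest positive difference. It gave 7.76, 6.84 and 7.79 in Gli2R Tg arrays, against 5.05, 4.64 and 5.48 in WT arrays (log2 difference 2.40 ± 0.41; limma adjusted p = 0.0694). Stimulated Gli2A Tg cells held 7.38, 7.20 and 7.22, and resting cells averaged 6.95 in Gli2R Tg and 7.19 in WT, so the stimulated WT arrays were the low ones. A second probe set for Marchf10 differed by 0.06. Kctd8, also among the 10 lowest p on the higher side, differed by 1.58, while its second probe set differed by -0.07. By limma, Fsd2 (1.09; adjusted p = 0.0538), Tmem8b (1.55; adjusted p = 0.113), Txndc16 (1.07; adjusted p = 0.0917) and Gpr137 (1.01; adjusted p = 0.113) followed, and for each the Gli2A Tg mean was above the WT mean as well. Of well-expressed genes, Snrpf, a core protein of spliceosomal snRNPs, gave 13.31, 13.69 and 13.38 in Gli2R Tg arrays, against 12.43, 12.62 and 12.57 in WT arrays (log2 difference 0.92 ± 0.18; limma adjusted p = 0.128). Mdh1, the cytosolic malate dehydrogenase, differed by 0.84 ± 0.17 (limma adjusted p = 0.135), while its other probe sets differed by 0.11, -0.15, 0.17 and 0.44. On the low side, the transporter gene Slc22a23 gave 5.51, 4.65 and 5.82 in Gli2R Tg arrays, against 6.97, 6.90 and 7.30 in WT arrays (log2 difference -1.73 ± 0.31; limma adjusted p = 0.0894). Tgm2, which crosslinks proteins, gave 7.63, 7.53 and 7.40 in Gli2R Tg arrays, against 8.84, 9.08 and 8.90 in WT arrays (log2 difference -1.42 ± 0.31; limma adjusted p = 0.15). The transcription factor gene Mef2c gave 5.84, 6.22 and 5.46 in Gli2R Tg arrays, against 7.46, 6.84 and 6.98 in WT arrays (log2 difference -1.26 ± 0.27; limma adjusted p = 0.15). None of these groups overlapped. The other probe sets of Tgm2 differed by -1.28 to 0.54 and those of Mef2c by -0.99 to 0.65. Mdh1 and the genes given on the low side were chosen after their values were seen. Uba7, the activating enzyme for the interferon-induced modifier ISG15, gave 9.28, 9.30 and 9.31 in Gli2R Tg arrays, against 10.19, 9.71 and 10.04 in WT arrays (log2 difference -0.68 ± 0.13; limma adjusted p = 0.113), and its other probe sets differed by -0.55 and 0.02.

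Because Gli factors bind a known DNA sequence, the promoters of the named genes were searched for it. The Gli consensus GACCACCCA and its core CCACCC were looked for on both strands, from 250 bases before to 50 after each start site (RefSeq, GRCm38.p6). The consensus contains the core, so every consensus match is also a core match. The consensus occurs in 83 of 32851 mouse promoter windows (0.253%) and the core in 10340 (31.5%). No window of the 26 genes that could be matched, of 28 looked up, held the consensus. Of the 9 named genes with higher values in Gli2R Tg cells that had a window, 4 held the core (Cavin4, Marchf10, Txndc16 and Gpr137) and 5 did not (Bbs4, Fsd2, Tmem8b, Kctd8 and Snrpf). None was found in the windows of Gstt1, Cnr2 and Tdpoz1, the named called genes that fell. Of the core Hedgehog genes with a window, Gli2, Gli3 and Smo held the core and Ptch1 and Sufu did not. With so few genes and a core in 31.5% of all windows, nothing is read from this. A match describes these letters and not a bound site. The promoters of the called gene that held the core, Cavin4 (chr4:48663264-48663563, plus strand), and of the 2 uncalled genes with the lowest p among those that held it, Marchf10 (chr11:105456686-105456985, minus strand) and Txndc16 (chr14:45219376-45219675, minus strand), read 5′ to 3′ as follows, with the core in capitals at -144, -64 and -151 bases from the start.
Cavin4: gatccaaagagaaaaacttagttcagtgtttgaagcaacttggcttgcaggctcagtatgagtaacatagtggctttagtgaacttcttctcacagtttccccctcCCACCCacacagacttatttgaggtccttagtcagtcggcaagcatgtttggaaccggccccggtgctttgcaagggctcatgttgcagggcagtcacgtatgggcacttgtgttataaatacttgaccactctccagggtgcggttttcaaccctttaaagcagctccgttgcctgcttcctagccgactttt
Marchf10: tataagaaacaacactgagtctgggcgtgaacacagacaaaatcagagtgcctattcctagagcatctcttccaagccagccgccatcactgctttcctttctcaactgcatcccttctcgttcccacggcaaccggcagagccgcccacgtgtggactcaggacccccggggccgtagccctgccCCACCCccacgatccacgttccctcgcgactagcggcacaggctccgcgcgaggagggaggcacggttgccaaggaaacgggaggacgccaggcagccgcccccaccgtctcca
Txndc16: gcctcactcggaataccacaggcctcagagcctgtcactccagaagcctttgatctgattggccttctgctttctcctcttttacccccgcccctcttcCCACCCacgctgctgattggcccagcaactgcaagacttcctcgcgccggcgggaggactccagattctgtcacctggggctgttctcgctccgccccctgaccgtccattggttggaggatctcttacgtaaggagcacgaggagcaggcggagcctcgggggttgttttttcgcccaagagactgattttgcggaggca

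Genes of the Hedgehog pathway itself did not pass the test. Of 19 measured components, 0 were called (background 0.044%), 7 had a difference above 0 and 12 below, and 3 (15.8%, against 17.6% of all genes) had groups that did not overlap. Their median difference was -0.09, against -0.01 over all genes. Ptch1, the receptor and target, gave 10.08, 10.23 and 9.96 in Gli2R Tg arrays, against 10.24, 9.95 and 10.25 in WT arrays. The groups overlapped (log2 difference -0.06 ± 0.16; limma adjusted p = 0.954). The same probe set read 12.05, 12.27 and 12.48 in stimulated Gli2A Tg arrays, and stimulated Gli2R Tg cells were 4.53-fold lower than those (limma adjusted p = 1.34e-05). Other Ptch1 probe sets, at lower levels, differed between stimulated Gli2R Tg and WT cells by -0.46 (6.08 against 6.54) and 0.17 (4.45 against 4.28).

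The other components were expressed at low or middling levels. Gli1, a transcriptional target and amplifier of the pathway, gave 6.51, 5.47 and 5.97 in Gli2R Tg arrays, against 5.66, 6.04 and 6.16 in WT arrays (0.03 ± 0.31). Gli3, the other Gli protein with a repressor form, gave 6.70, 5.62 and 6.36 in Gli2R Tg arrays, against 4.74, 4.86 and 5.77 in WT arrays (1.10 ± 0.45; limma adjusted p = 0.466). Its 2 other probe sets differed by -0.17 and -0.04. The signal transducer Smo gave 7.64, 7.33 and 7.02 in Gli2R Tg arrays, against 7.76, 7.48 and 7.88 in WT arrays (-0.38 ± 0.26), while its second probe set differed by 0.42. Sufu, which holds Gli proteins in the cytoplasm, differed by -0.09 ± 0.13. The ligand gene with the largest difference was Dhh, with 6.84, 5.45 and 6.84 in Gli2R Tg arrays, against 4.51, 5.11 and 5.02 in WT arrays (1.5 ± 0.37; limma adjusted p = 0.214), and its second probe set differed by 0.13. The ligand gene Shh gave 7.51, 7.53 and 5.75 in Gli2R Tg arrays, against 7.65, 8.03 and 7.73 in WT arrays (-0.87 ± 0.48), and its second probe set by 0.72. No core component had a difference that was both past the threshold and shared by its probe sets.

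Of 18 genes known from other tissues as Gli targets, 0 passed the test (background 0.044%), 9 were above 0 and 9 below, and the median was -0.01, the same to 2 decimals as over all genes. The survival gene Bcl2 gave 9.70, 9.54 and 9.46 in Gli2R Tg arrays, against 9.77, 10.30 and 10.38 in WT arrays (-0.58 ± 0.20; limma adjusted p = 0.365). Other Bcl2 probe sets differed by -0.02, 0.08, -0.15 and -0.44. The secreted Wnt antagonist gene Sfrp1 differed by -1.05 ± 0.77 and Igfbp6 by 0.79 ± 0.47, both with overlapping groups, and cyclin E1 (Ccne1) by -0.72 ± 0.39 without overlap. Other Sfrp1 probe sets differed by -0.08 to 0.65.

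**Figure D2:**
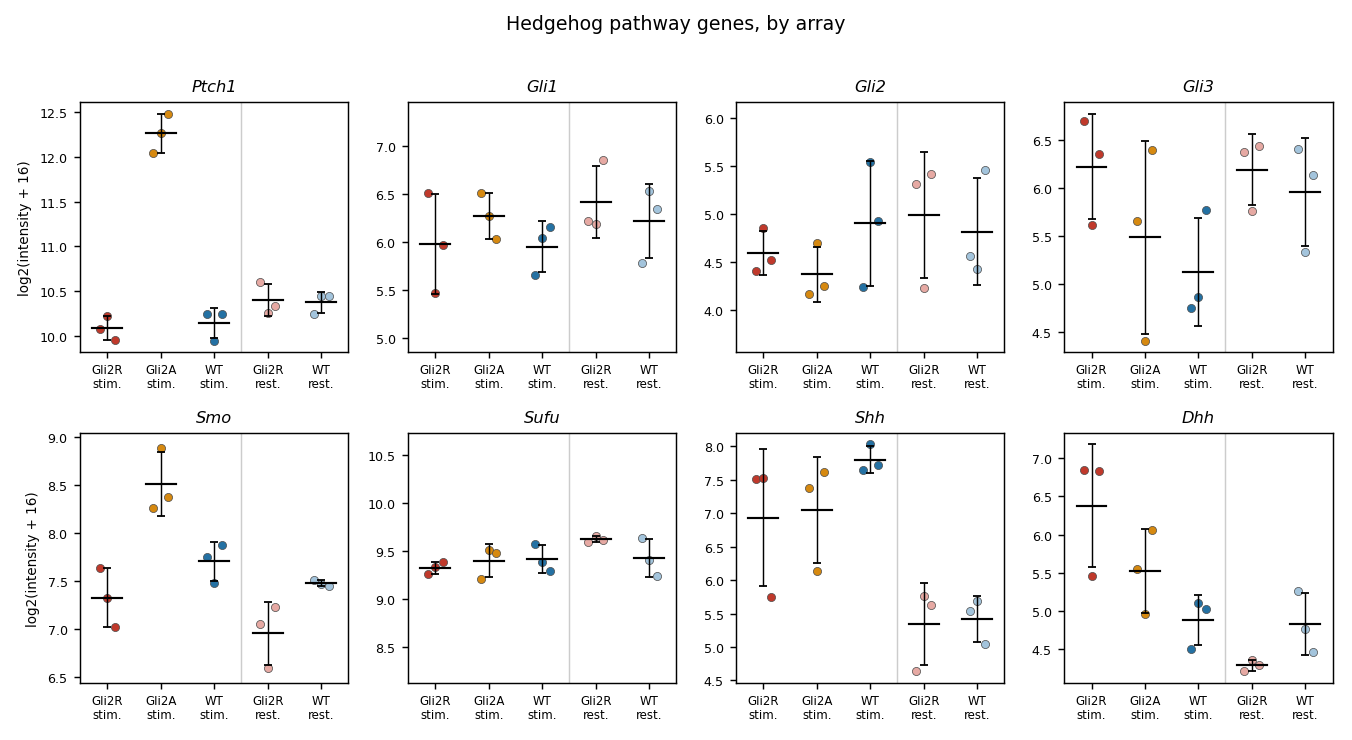
Levels of 8 Hedgehog pathway genes, as log2(intensity + 16), in each array of stimulated Gli2R Tg, Gli2A Tg and WT cells and of resting (rest.) Gli2R Tg and WT cells; points are arrays, horizontal lines are means and error bars are SD (n = 3), and each panel has its own vertical scale. Ptch1 lies between 9.95 and 10.25 in stimulated Gli2R Tg and WT cells and between 12.05 and 12.48 in Gli2A Tg cells.

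Cytokine genes were lower in the stimulated Gli2R Tg arrays, without passing the test across all genes. The 8 cytokine genes described here were picked from the T helper and interleukin lists with their values known, so their shared direction is a description. For all 8, every Gli2R Tg array was below every WT array, against 9.32% of all genes in that direction. The third Gli2R Tg array was the lowest of its group for 6 of the 8.

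Among type 2 cytokines, which drive antibody class switching and eosinophil responses, Il4 gave 7.91, 8.81 and 7.33 in Gli2R Tg arrays, against 9.10, 9.17 and 10.04 in WT arrays. The groups did not overlap, though the second Gli2R Tg array came close to the lowest WT array (2.68-fold; log2 difference -1.42 ± 0.37; limma adjusted p = 0.225). Il13 gave 5.62, 5.41 and 4.66 in Gli2R Tg arrays, against 7.0, 7.34 and 7.24 in WT arrays (log2 difference -1.96 ± 0.49; limma adjusted p = 0.219). Il5 gave 5.43, 5.46 and 5.62 in Gli2R Tg arrays, against 6.39, 6.37 and 7.62 in WT arrays (log2 difference -1.29 ± 0.39; limma adjusted p = 0.314). Leaving out the third Gli2R Tg array brought the Il4 difference to -1.08, and leaving out the second brought it to -1.82; the adjusted p ran from 0.0698 to 0.486 over the alternatives. Basophil and mast cell markers, of cells that also express Il4 and Il13, averaged 6.60, 6.54 and 6.63 in Gli2R Tg arrays, against 6.79, 6.64 and 7.08 in WT arrays, without overlap. Of these 9 markers 7 were below 0 (median -0.27) and 0 were called, their summed intensity was 985 to 1178 in Gli2R Tg arrays and 1009 to 1447 in WT arrays, and their part in the cytokine values was not tested.

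Il4 had opposite signs in the transgenic groups. Stimulated Gli2A Tg arrays held 11.54, 12.33 and 11.28, above every WT array (log2 difference 2.28; limma adjusted p = 0.0262), and Gli2R Tg cells were 13-fold lower than those Gli2A Tg cells (log2 difference -3.70 ± 0.37; limma adjusted p = 0.000587). In resting cells Il4 averaged 7.62 in Gli2R Tg and 6.92 in WT. Of the 2 Il4 promoter windows, the window that holds the core (chr11:53617289-53617588, minus strand, GRCm38.p6) is shown. Il4 was taken because it had the largest difference of these cytokines between the transgenic groups. The window shown holds 1 core, in capitals, at -240 bases from the start and no consensus. The other window (chr11:53618616-53618915) holds neither. Windows of Il13, Il5, Il3 and Csf2 held the core too, and those of Il2, Ifng and Il21 did not, beside a core in 31.5% of all windows.
Il4: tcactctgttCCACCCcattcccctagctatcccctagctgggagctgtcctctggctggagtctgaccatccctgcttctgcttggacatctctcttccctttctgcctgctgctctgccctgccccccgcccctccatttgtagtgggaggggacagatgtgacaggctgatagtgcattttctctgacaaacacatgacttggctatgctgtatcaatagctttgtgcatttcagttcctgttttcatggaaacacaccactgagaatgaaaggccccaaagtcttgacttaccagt

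The other cytokine genes gave smaller or more scattered differences. Ifng, the type 1 effector cytokine, gave 12.38, 12.49 and 11.36 in Gli2R Tg arrays, against 13.22, 13.31 and 13.38 in WT arrays (log2 difference -1.23 ± 0.47; limma adjusted p = 0.428). Il2, the T cell growth factor, gave 12.48, 12.70 and 12.41 in Gli2R Tg arrays, against 13.28, 13.14 and 13.54 in WT arrays (log2 difference -0.79 ± 0.22; limma adjusted p = 0.253). Il21, which helps B cells, gave 9.90, 10.27 and 9.65 in Gli2R Tg arrays, against 10.72, 11.03 and 11.69 in WT arrays (log2 difference -1.20 ± 0.66; limma adjusted p = 0.625). Both groups were tight for Il2, while the third Gli2R Tg array stood apart for Ifng. The growth factor genes Csf2 and Il3 differed by -0.98 ± 0.37 and -1.35 ± 0.49 (limma adjusted p = 0.427 and 0.403), with 6.22, 6.17 and 4.21 for Il3 in Gli2R Tg arrays, against 6.98, 6.70 and 6.98 in WT arrays. For 7 of the 8 the Gli2R Tg mean was also below that of Gli2A Tg cells; Il3 was the exception, with a Gli2A Tg mean of 4.82.

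Before stimulation the same cytokine genes mostly leaned the other way, some of them near the floor of the arrays. In resting cells 7 of the 8 had a higher mean in Gli2R Tg than in WT, though for Il2 by 0.00, and Il5 differed by -0.20. Of all 18193 genes 9485 were above 0 in that comparison. Il3 averaged 4.53 in resting Gli2R Tg and 4.38 in resting WT cells, and Il13 5.38 and 5.01, beside a 25th percentile of 5.37 over genes. Ifng gave 9.72, 9.77 and 8.56 in resting Gli2R Tg arrays, against 8.87, 8.27 and 6.98 in resting WT arrays. Il21 gave 9.49, 9.71 and 6.41 in resting Gli2R Tg arrays, against 6.09, 6.70 and 6.16 in resting WT arrays. Its second probe set did not show this resting difference, with means of 4.88 in Gli2R Tg and 4.85 in WT. In stimulated cells that probe set differed by -1.13. A limma test of the difference between the stimulated and resting effects called 0 of 18193 genes (1574, or 8.65%, at an unadjusted p under 0.05), with adjusted p = 0.286 for Ifng (-2.54), 0.296 for Il21 (-3.43) and 0.284 for Il4 (-2.12), and the resting comparison itself called 0 genes (1869, or 10.3%, at an unadjusted p under 0.05). The stimulated and resting comparisons share no arrays.

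**Figure D3:**
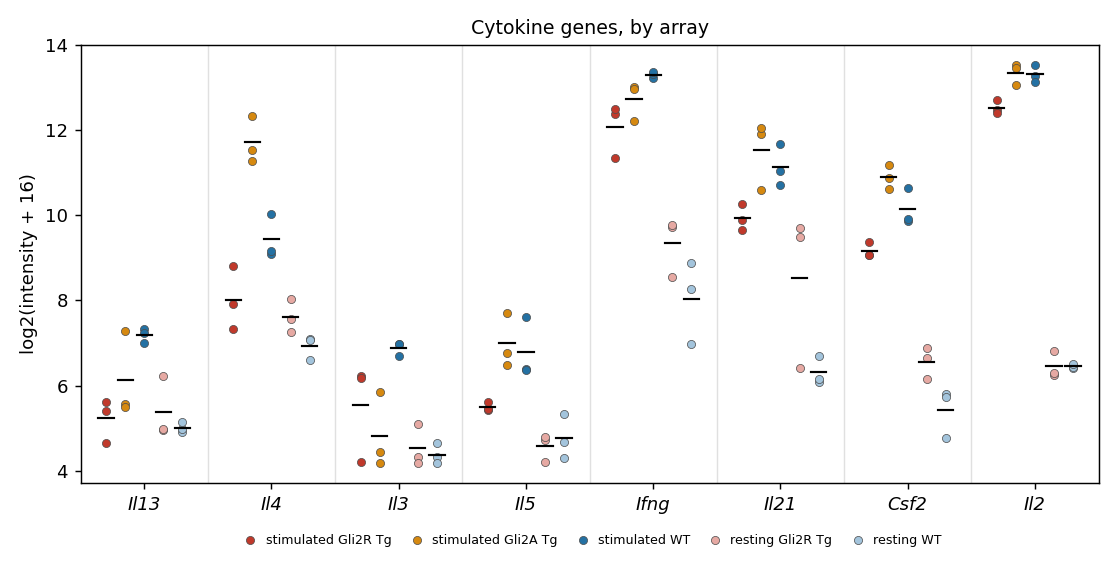
Levels of 8 cytokine genes, as log2(intensity + 16), in each array of stimulated Gli2R Tg, Gli2A Tg and WT cells and of resting Gli2R Tg and WT cells. Points are arrays and horizontal lines are means (n = 3), and all genes share the same vertical scale. For every gene the 3 stimulated Gli2R Tg points lie below the 3 stimulated WT points, and the Il4 points of Gli2A Tg cells, 11.28 to 12.33, lie above both.

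The lists from which these genes came had low medians as wholes. Of 15 Th1 genes 13 were below 0 and 6 had lower, non-overlapping Gli2R Tg arrays (median -0.30); of 15 Th2 genes the numbers were 12 and 5 (median -0.38, or -0.08 without the third Gli2R Tg array). Of all genes 9.32% had lower arrays without overlap. Their lineage-defining transcription factors differed less: Tbx21, the Th1 factor, by -0.28 ± 0.25, and Gata3, the Th2 factor, by -0.26 ± 0.21. Of 17 chemokine ligand genes, which recruit other leukocytes, 12 were below 0 and 7 were lower without overlap, against 9.32% of all genes (median -0.38). In stimulated Gli2A Tg cells against the same 3 WT arrays, 14 of 15 Th1 genes were below 0 and 10 lower without overlap (median -0.46). For chemokine ligands these numbers were 11 of 17 and 6 (median -0.40), and for Th2 genes 8 of 15 and 2 (median -0.08). Of all 18193 genes 1574 were lower without overlap there. Low Th1 and chemokine ligand medians were therefore not particular to Gli2R Tg cells. Cxcl9 gave 8.69, 8.80 and 8.97 in Gli2R Tg arrays, against 9.97, 9.64 and 10.32 in WT arrays (log2 difference -1.16 ± 0.39; limma adjusted p = 0.354). Ccl3 gave 8.0, 7.79 and 7.45 in Gli2R Tg arrays, against 8.68, 8.90 and 8.92 in WT arrays (log2 difference -1.09 ± 0.53), and in resting cells it differed by 2.18 the other way. The cytotoxic granule protease gene Gzmb gave 10.39, 11.02 and 10.44 in Gli2R Tg arrays, against 11.22, 11.55 and 11.74 in WT arrays (log2 difference -0.89 ± 0.21; limma adjusted p = 0.207), and Gli2A Tg cells held 10.63, 10.62 and 10.29. Among chemokine receptors (median -0.18 over 16, or 0.06 without the third Gli2R Tg array), Cxcr6 differed by -0.98 ± 0.33 and Ccr4, a receptor of Th2 cells, by -0.80 ± 0.23.

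Genes of glycolysis and the hypoxia response had the highest share of non-overlapping members of the 40 lists. Of 19 measured genes 17 were below 0 and 13 had every Gli2R Tg array below every WT array (68.4%, against 9.32% of all genes in that direction), while 0 passed the test (background 0.044%). The median difference was -0.27 and it stayed between -0.50 and -0.22 over the alternatives. The median of the 19 genes, relative to the WT mean, was -0.22, -0.26 and -0.32 in the Gli2R Tg arrays, against 0.07, -0.04 and -0.01 in the WT arrays. The differences were small for abundant enzymes: lactate dehydrogenase Ldha gave 15.28, 15.22 and 15.32 in Gli2R Tg arrays, against 15.44, 15.39 and 15.44 in WT arrays (-0.15 ± 0.10).

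The largest difference in this list was at Egln3, an oxygen sensor that is itself induced by hypoxia-inducible factor. It gave 11.62, 11.50 and 11.24 in Gli2R Tg arrays, against 12.65, 12.40 and 12.85 in WT arrays (log2 difference -1.18 ± 0.33; limma adjusted p = 0.25), and its second probe set differed by -1.43. Stimulated Gli2A Tg arrays were at 13.25, 13.40 and 12.14. The lactate exporter gene Slc16a3 differed by -0.63 ± 0.22, the first enzyme of glycolysis Hk2 by -0.56 ± 0.23, the phosphofructokinase gene Pfkp by -0.50 ± 0.21, the mitophagy receptor gene Bnip3 by -0.46 ± 0.25 and the glucose transporter gene Slc2a3 by -0.44 ± 0.21. Only Pgk1 (0.14) and Pfkfb3 (0.20) had higher means in Gli2R Tg cells. In resting cells the list's median was 0.19.

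Heat shock genes were lower in stimulated Gli2R Tg arrays as well. Of 13 measured, 12 were below 0 and 8 had lower, non-overlapping Gli2R Tg arrays (61.5%, against 9.32% of all genes), with 0 called and a median of -0.23. The inducible HSP70 gene Hspa1a gave 8.36, 8.02 and 7.15 in Gli2R Tg arrays, against 9.18, 8.18 and 8.63 in WT arrays (-0.82 ± 0.55), and Hspa1b differed by -0.78 ± 0.44. The heme oxygenase gene Hmox1 gave 7.19, 6.94 and 7.04 in Gli2R Tg arrays, against 8.39, 7.28 and 7.96 in WT arrays (-0.82 ± 0.52). The cytosolic HSP90 gene Hsp90aa1 was the exception, at 0.21 ± 0.16. In resting cells the heat shock list's median was -0.13, where that of the glycolysis and hypoxia list was 0.19. There 8 of 13 heat shock genes were below 0 and 5 lower without overlap, against 1666 of all 18193 genes. Stimulated Gli2A Tg cells were also lower than WT without overlap at 5 of 13 (median -0.08), against 1574 of all genes.

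**Figure D4:**
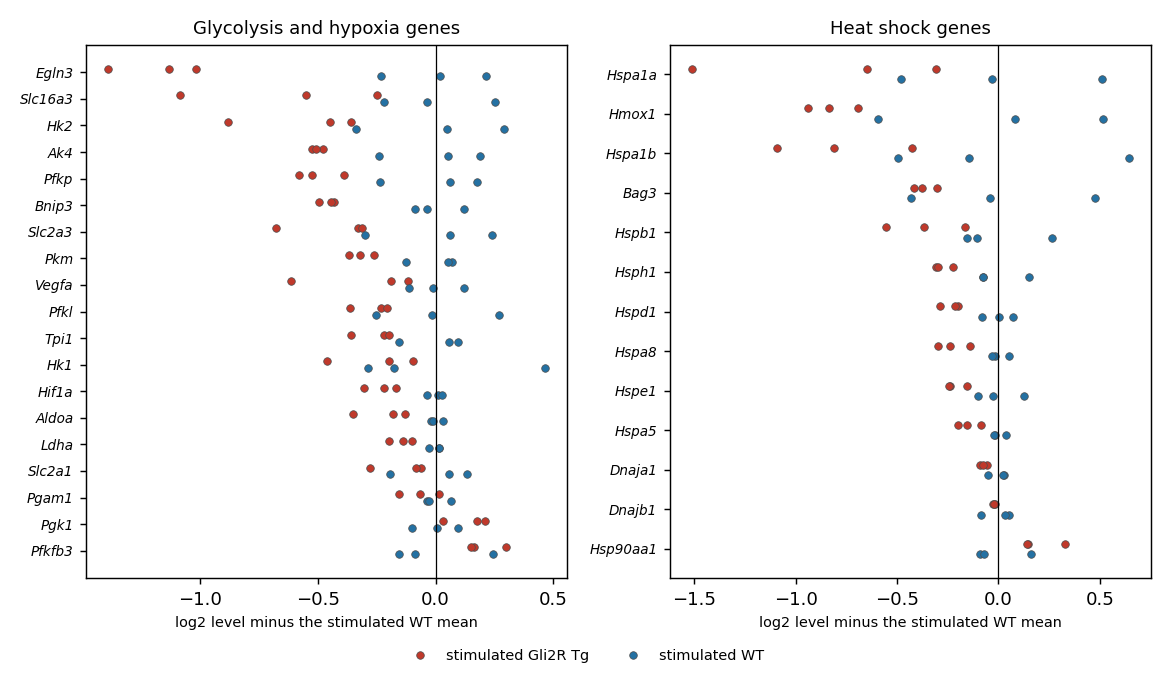
Level of each glycolysis and hypoxia gene (left) and heat shock gene (right) in the stimulated Gli2R Tg and WT arrays, as log2 level minus the WT mean of that gene; each point is an array and genes run down the page from the lowest difference. Gli2R Tg points lie to the left of all WT points for 13 of 19 genes on the left and 8 of 13 on the right.

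For the T cell receptor and its proximal signalling proteins, 17 of 24 measured genes were above 0 and 7 were higher without overlap in Gli2R Tg arrays, against 8.27% of all genes in that direction (median 0.12, which became -0.01 when arrays were scaled on their medians). The CD3 chain gene Cd3g gave 11.91, 11.90 and 12.08 in Gli2R Tg arrays, against 11.49, 11.87 and 11.34 in WT arrays (0.40 ± 0.17), and the costimulatory receptor gene Cd28 gave 13.03, 13.24 and 13.38 in Gli2R Tg arrays, against 12.90, 12.77 and 12.91 in WT arrays (0.36 ± 0.20). Of 20 markers of activation, 17 were below 0 (median -0.16), but the early marker Cd69 gave 13.97, 14.14 and 13.91 in Gli2R Tg arrays, against 13.49, 13.54 and 13.35 in WT arrays (0.55 ± 0.33). None of these passed the test. In stimulated Gli2A Tg cells against the same WT arrays, 16 of the 20 activation markers were below 0 (median -0.26).

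The lists of nuclear factors downstream of the receptor had medians from -0.20 to -0.04. AP-1 genes had a median of -0.20, with 8 of 12 below 0, and Egr, Nr4a and NFAT genes one of -0.04. The repressor gene Prdm1, a driver of terminal differentiation, gave 7.12, 7.30 and 6.45 in Gli2R Tg arrays, against 7.84, 7.93 and 7.57 in WT arrays (-0.82 ± 0.23; limma adjusted p = 0.249). Nfil3, which acts in cytokine gene control, gave 7.59, 8.26 and 6.51 in Gli2R Tg arrays, against 8.55, 8.29 and 8.90 in WT arrays (-1.13 ± 0.49; limma adjusted p = 0.504). Feedback genes of the cytokine receptors were lower by small amounts, with Cish at -0.34 ± 0.19 and Socs1 at -0.35 ± 0.25. The signal transducer gene Stat3 differed by -0.36 ± 0.22, or -0.04 as the mean of its probe sets. Of 18 SOCS and STAT genes 13 were below 0 (median -0.15). NF-kB genes had a median of -0.07, and MAP kinase feedback genes one of 0.03, or -0.12 when arrays were scaled on their medians. The antiproliferative gene Btg1, high in quiescent cells, gave 14.70, 14.96 and 14.88 in Gli2R Tg arrays, against 14.23, 14.46 and 13.93 in WT arrays (0.64 ± 0.13; limma adjusted p = 0.15), and its other probe sets differed by 0.94 and 0.05. The 18 naive and quiescence genes had a median of 0.08, or -0.06 with the median scaling.

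Of 21 genes of S phase and mitosis, 18 were below 0 in stimulated cells (median -0.40) with 0 called and 1 at an unadjusted p under 0.05, and without the third WT array the median was -0.10. The thymidine kinase gene Tk1 gave 6.92, 6.65 and 7.44 in Gli2R Tg arrays, against 7.94, 7.75 and 8.63 in WT arrays (-1.10 ± 0.42; limma adjusted p = 0.424). In resting cells all 21 were below 0, with a median of -1.01, and the erythroid and platelet list had the same resting median to 2 decimals. The cell cycle inhibitor gene Cdkn1a gave 9.20, 9.08 and 9.37 in Gli2R Tg arrays, against 10.10, 9.86 and 10.07 in WT arrays (-0.79 ± 0.28; limma adjusted p = 0.396), and the Myc antagonist gene Mxd4 differed by -0.98 ± 0.24 (limma adjusted p = 0.208). A second Cdkn1a probe set differed by -0.14. The G1 list as a whole had a median of 0.00.

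Over the 40 lists, 31 had a median below that of all genes in stimulated cells and 9 above it, and 0 of their 568 measured genes were called. Of those genes 122 had lower and 37 higher non-overlapping Gli2R Tg arrays, against 1695 and 1504 of all 18193. In resting cells 11 lists had a median below that of all genes and 29 above it. Those resting groups differed in makeup as well: all 3 Gli2R Tg arrays had the female pattern and 2 of 3 WT arrays the male one, pancreatic enzyme genes had a median difference of 2.38 (11 of 11 above 0), and 17 of 18 myeloid markers were below 0. Many lists share genes and all share the same arrays, so their medians are not separate observations. The TNF superfamily (median -0.07 in stimulated and 0.35 in resting cells) and the checkpoint and CD28 family receptors (-0.07 and 0.43) show the turn between the states, which as a property of lists was not tested.

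**Figure D5:**
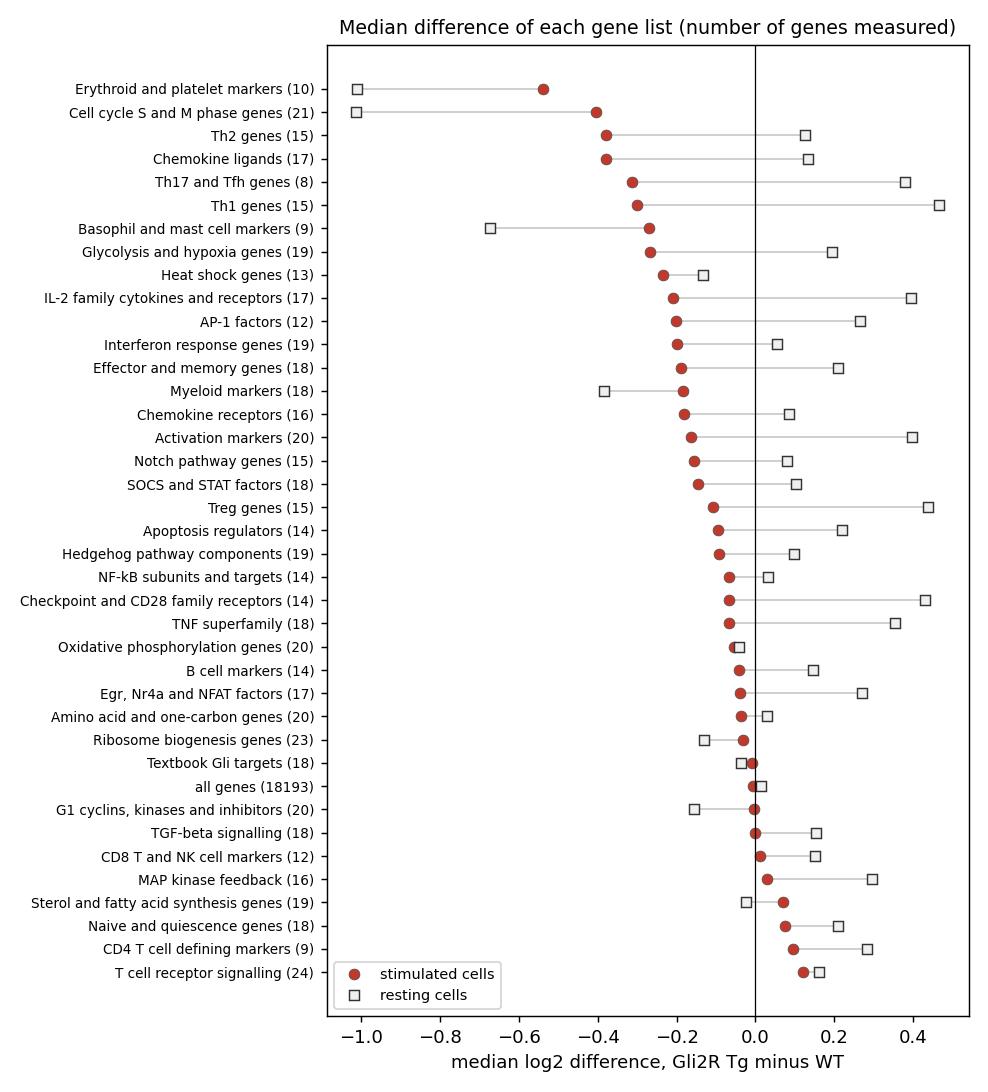
Median log2 difference, Gli2R Tg minus WT, of each gene list in stimulated cells (circles) and in resting cells (squares), with the number of genes measured in brackets; the row of all genes is included and the sex-linked and pancreatic enzyme lists are left out. T helper, chemokine ligand and glycolysis lists have circles left of 0 and squares right of 0, and the erythroid and cell cycle lists have both symbols left of 0.

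Set directly against stimulated Gli2A Tg cells, stimulated Gli2R Tg cells differed at 42 genes by limma (0.231%), 6 higher (0.033%) and 36 lower (0.198%). This comparison shares the Gli2R Tg arrays with the one against WT, and 2 genes, Gstt1 and Cnr2, were called in both. Gstt1 differed from Gli2A Tg cells by -1.94 and Cnr2 by -1.48 (limma adjusted p = 0.0117 and 0.00827), with Gli2R Tg values at the floor. At 7 of the 42, Gli2A Tg cells also differed from WT by the same test. Besides Il4 and Ptch1, the lower genes included Slco4a1, an organic anion transporter, with 5.82, 5.76 and 6.70 in Gli2R Tg arrays, against 8.25, 8.64 and 8.86 in Gli2A Tg arrays (log2 difference -2.49 ± 0.32; limma adjusted p = 0.0073). Tgfb3, a TGF-beta ligand, gave 5.38, 5.22 and 5.06 in Gli2R Tg arrays, against 7.77, 8.35 and 6.90 in Gli2A Tg arrays (log2 difference -2.45 ± 0.35; limma adjusted p = 0.00837). WT cells lay between, at 5.65, 6.43 and 6.11. Mef2c (-1.94), Tgm2 (-1.87), the complement regulator properdin (Cfp, -2.60) and the microtubule-associated ubiquitin ligase Mid1 (-2.23) were lower as well. Dapl1, a gene high in resting T cells, had the largest rise among the 6 genes called higher, at 7.87, 7.16 and 7.21 in Gli2R Tg arrays, against 5.76, 5.47 and 5.02 in Gli2A Tg arrays (log2 difference 2.0 ± 0.27; limma adjusted p = 0.00751), and WT arrays, at 7.46, 7.52 and 6.98, overlapped those of Gli2R Tg. Myeloid markers moved with this comparison: 15 of 18 were below 0 (median -0.98), 0 were called, and they averaged 7.13, 7.13 and 7.36 in Gli2R Tg arrays, against 8.55, 8.35 and 7.56 in Gli2A Tg arrays. With their mean as a covariate 1 of the 42 calls remained, and when only these 6 arrays entered the fit 0 did. All 3 Gli2A Tg arrays had the female pattern, and 4 calls remained with the sex pattern as a covariate.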

How the data were processed

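The deposited table holds linear intensity values for 45101 probe sets on 18 arrays; per the submitters' processing notes they were made with the affy package (version not given), and the values show scaling of each array to a 2% trimmed mean of 500. From these deposited intensities, log2(intensity + 16) was taken and quantile normalized over all arrays. The probe annotation gave 34945 probe sets 1 gene symbol; of each gene the brightest was used (18193 genes). Probe sets with several symbols (932) or none (9160) were left out.

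All 6 groups, 3 arrays each, entered 1 limma fit (R 4.3.3, limma 3.58.1) with moderated tests and Benjamini-Hochberg adjustment over all genes; genes under an adjusted p of 0.05 are called. The number of arrays limits the precision. The fit was tested on simulated data. Replicate numbers did not pair the stimulated Gli2R Tg and WT arrays (correlations of same-numbered deviations between -0.0305 and -0.000947). In resting Gli2R Tg and WT arrays the same-numbered correlations were 0.0903, 0.0206 and 0.104, and the others ran from -0.108 to 0.0209. The labels state no pairing, so no block was used, and calls with a block are given below.

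Named genes were the called genes and Ptch1, Gli1, Gli2, Gli3, Smo and Sufu. The 10 lowest p were added as values in a direction with fewer than 5 calls, which was the higher one only. Up to 4 genes with the largest differences per list were named and, for the comparison with Gli2A Tg, the 5 largest in each direction. Other named genes were chosen after their values were seen. The members and the 40 lists (614 genes, 568 measured) were chosen with earlier results of these data known. Promoters are RefSeq's. Alternatives covered scaling, pseudocount, low-level filter, probe set choice, eBayes options, array weights, replicate block, covariates and single arrays left out.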

Additional observations from a re-analysis of the deposited data

Results flagged for a closer look

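Probe sets without a single gene symbol took no part in the comparisons above. Tested on their own in stimulated Gli2R Tg against stimulated WT cells, 1 of 10092 passed (limma adjusted p = 0.0431), and 0 passed in the resting comparison (lowest limma adjusted p = 0.0701). It has no gene name here. In addition, 0 genes passed the limma test of a difference between the stimulated and resting effects.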

How the results depend on the processing

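The 8 genes called against WT became 0 with median centring (2000 at an unadjusted p under 0.05), the deposited scaling alone (1682), a pseudocount of 64 (1705), genes above the median level (927; this filter leaves out all 8 genes, so it tests none of them), the replicate block (1777), only the arrays compared (1688) and the sex pattern as covariate (1480). They became 4 at a pseudocount of 1 (2 shared with the 8), 38 with every probe set as its own feature, 16 with trended and robust eBayes (1 shared) and 2 with the myeloid mean as covariate. Leaving out single arrays gave 0 to 14 genes: 0 without the third Gli2R Tg or the third WT array, 7 without the first WT array (0 of the 8 among them), 1 without the second WT array, 2 without the first and 14 without the second Gli2R Tg array, and 3 without the second Gli2A Tg array, whose Actb 3′ to 5′ ratio was 3.0. The 0 resting calls became 6 (median centring), 1 (deposited scaling), 2 (pseudocount 1), 16 (pseudocount 64), 48 (above the median level), 7 (every probe set), 46 (trend and robust), 212 (array weights) and 36 (replicate block), and 0 to 34 without single arrays. The 0 calls for the difference between the states became 2 (pseudocount 64), 1 (above the median level), 6 (every probe set) and 7 (trend and robust), and 0 to 12 without single arrays. The 42 genes against Gli2A Tg became 103 (pseudocount 64), 121 (above the median level), 23 (mean of probe sets), 137 (trend and robust), 132 (array weights), 27 (replicate block), 0 (only the arrays compared), 4 (sex pattern) and 1 (myeloid mean), and 19 to 71 without single arrays. List genes called became 2 with trend and robust, and 0 to 1 without single arrays; the number of lists under the median of all genes stayed within 1.5 times 31. Median centring moved the median of all genes from -0.01 to -0.11. The causes of these shifts were not tested.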

Other observations

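Some further gene groups were described by counts, with 0 members called in each. Of 19 interferon response genes 15 were below 0 in stimulated Gli2R Tg against WT cells (median -0.20). In stimulated Gli2A Tg cells against the same WT arrays 18 of the 19 were below 0 (median -0.46). The antiviral gene Rsad2 gave 11.31, 11.27 and 11.42 in stimulated Gli2R Tg arrays, against 11.95, 11.71 and 11.78 in stimulated WT arrays (-0.48 ± 0.30; limma adjusted p = 0.688), and averaged 9.98 in resting Gli2R Tg and 11.66 in resting WT cells. In the Notch pathway 8 of 15 genes were below 0 (median -0.16). The ligand gene Jag1 gave 5.99, 5.39 and 5.75 in Gli2R Tg arrays, against 6.29, 6.72 and 6.67 in WT arrays, and the target gene Hes1 6.16, 5.79 and 5.81 in Gli2R Tg arrays, against 6.53, 6.21 and 7.13 in WT arrays. Other Jag1 probe sets differed by 0.39 and -0.001. The protease gene Adam10, which cuts Notch receptors, leaned the other way at 12.36, 12.31 and 12.34 in Gli2R Tg arrays, against 11.91, 11.98 and 11.78 in WT arrays (0.45 ± 0.14; limma adjusted p = 0.333).

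Regulatory T cell genes had a median of -0.11 over 15, with the inhibitory receptor gene Ctla4 at 11.19, 11.53 and 11.02 in Gli2R Tg arrays, against 11.75, 11.64 and 11.95 in WT arrays, and a resting median of 0.44. Biosynthesis lists stayed near the median of all genes: ribosome biogenesis had a median of -0.03 over 23 genes, oxidative phosphorylation -0.06 over 20, amino acid and one-carbon genes -0.04 over 20, and sterol and fatty acid synthesis 0.07 over 19, or -0.04 when arrays were scaled on their medians. In the same order, groups did not overlap at 39.1%, 35%, 25% and 15.8% of their genes, against 17.6% of all genes. In ribosome biogenesis 2 genes were higher and 7 lower without overlap, and in oxidative phosphorylation 3 and 4. Within the ribosome biogenesis list the nucleolar methyltransferase gene Fbl gave 14.23, 14.18 and 14.16 in Gli2R Tg arrays, against 14.55, 14.50 and 14.53 in WT arrays (-0.33 ± 0.14; limma adjusted p = 0.493).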
